A study of Mus musculus with 4 samples.

Results

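The 9 endothelial junction genes *Cldn5*, *Ocln*, *Marveld2*, *Lsr*, *F11r*, *Esam*, *Tjp1*, *Cdh5* and *Pecam1* were taken by symbol from the 32286 genes of each count table. All 9 were present, and each symbol stood for 1 gene. Their level was followed per mouse through the endothelial cells (ECs) of the cerebrum, in *Angpt2*-WT and *Angpt2*-KO mice.

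Brain ECs are joined to each other by tight junctions and adherens junctions, and these contacts close the gap between neighbouring cells at the blood-brain barrier. Claudin-5 and occludin are membrane proteins of the tight junction strand, tricellulin (encoded by *Marveld2*) and the angulin LSR mark the corners where several cells meet, and ZO-1 (encoded by *Tjp1*) links the strand to actin. VE-cadherin (encoded by *Cdh5*) holds the adherens junction, while JAM-A (encoded by *F11r*), ESAM and PECAM1 are immunoglobulin-like adhesion proteins of the cell border. Fenestrated vessels, such as those of the choroid plexus, lack this barrier and carry the diaphragm protein PLVAP.

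Microvascular fragments were collected from cerebra of 3-month-old mice with magnetic beads bearing a PECAM1 antibody, and 1 10x Genomics 3′ library was made per mouse. The *Angpt2*-KO mice (KO1, KO2) carried a germ line deletion in *Angpt2*, made from a floxed allele by *Pgk*-Cre, and the *Angpt2*-WT mice (WT1, WT2) were their wild-type littermates. All came from heterozygous parents on the C57BL6/J background. Each genotype had 1 female (WT1, KO1) and 1 male (WT2, KO2). The 3′ reads do not show whether the deleted part is present, so the level of *Angpt2* does not check the genotype. Because PECAM1 protein was used to pull down the fragments, the presence of *Pecam1* RNA in the ECs is partly set by the preparation.

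After filtering (over 500 genes and less than 10% mitochondrial UMIs per cell) the libraries held 2900 to 5742 cells, 17999 in all, with 31753395 to 42903731 UMIs per library and a median of 4088.5 to 7351.5 UMIs per cell. Of the barcodes, 33 occurred in more than 1 library. Levels are given as CPM, the UMIs of a gene per 1000000 UMIs of the cells summed for a mouse. The 14156 brain ECs fell into capillary-like (8960 cells), arterial-like (2299), venous-like (689) and *Apln*-positive ECs, the last split into 131 tip cells and 2077 others. Most of those others had no *Apln* UMI, with one in 19.0, 20.8, 27.6 and 16.9% of them in WT1, WT2, KO1 and KO2, and the class is named for its cluster's *Apln* level (82.2, 117, 145 and 72.8 CPM against 1.86, 1.70, 10.5 and 8.41 CPM in capillary-like ECs). A further 810 cells were fenestrated-like ECs, with *Plvap* at 2856, 3061, 3349 and 2801 CPM in WT1, WT2, KO1 and KO2 against 1.36, 2.65, 2.07 and 2.80 CPM in capillary-like ECs. The 8 endothelial markers listed, among them *Kdr*, *Flt1* and *Tie1*, summed to 12434 to 14271 CPM in capillary-like ECs. Their sums were 13299.5 to 15233 CPM in fenestrated-like ECs and 6477 to 6684 CPM in tip cells. These markers also served to name the brain ECs, so the sums describe the classes and do not check the name. Fenestrated-like ECs were named by a list of 6 other markers, *Plvap* among them. The *Apln*-positive class was 95.7% *Angpt2*-KO by cells, with 42 and 48 WT cells outside the tip cells, and tip cells numbered 85 and 43 in KO1 and KO2 but 2 and 1 in WT1 and WT2. The 9 junction genes were kept out of the clustering that formed these classes.

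Gene positions are given on GRCm38 by GENCODE M21. *Cldn5* is a single-exon gene (chr16:18776847-18778262, plus strand). *Ocln* (chr13:100496507-100552718) and *Marveld2* (chr13:100595957-100616971) are near each other on the minus strand of the same chromosome. *Lsr* (chr7:30957770-30973464) and *Tjp1* (chr7:65296165-65527781) are also minus-strand genes. *F11r* (chr1:171437535-171464603), *Esam* (chr9:37528078-37538319) and *Cdh5* (chr8:104101625-104144511) are on the plus strand, and *Pecam1* (chr11:106654217-106750628) is on the minus strand. UMIs mark the 3′ end of a transcript, so the tables do not resolve exons.

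The results below turn on *Cldn5*, *Ocln* and *Lsr*, whose levels were low together in fenestrated-like ECs. Their proximal promoters are therefore shown, as the 250 bases before the transcription start in RefSeq on GRCm38.p6, 5′ to 3′ on the strand of the gene. They are at chr16:18776597-18776846 (plus strand), chr13:100552719-100552968 (minus strand, the upstream one of 2 listed starts) and chr7:30973470-30973719 (minus strand). Capitals mark matches to the letters CTTTG (a TCF/LEF core), ACAAT (SOX), CGGAAG (ETS) or GTAAACA (FOX) on either strand.
Cldn5: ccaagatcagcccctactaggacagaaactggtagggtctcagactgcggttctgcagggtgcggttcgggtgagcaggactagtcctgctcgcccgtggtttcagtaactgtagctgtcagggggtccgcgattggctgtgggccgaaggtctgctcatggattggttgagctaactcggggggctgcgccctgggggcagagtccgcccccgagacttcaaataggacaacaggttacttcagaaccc
Ocln: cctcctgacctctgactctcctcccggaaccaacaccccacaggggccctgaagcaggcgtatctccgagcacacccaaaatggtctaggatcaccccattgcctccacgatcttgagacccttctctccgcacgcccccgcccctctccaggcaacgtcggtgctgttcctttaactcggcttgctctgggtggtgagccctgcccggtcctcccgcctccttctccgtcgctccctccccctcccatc
Lsr: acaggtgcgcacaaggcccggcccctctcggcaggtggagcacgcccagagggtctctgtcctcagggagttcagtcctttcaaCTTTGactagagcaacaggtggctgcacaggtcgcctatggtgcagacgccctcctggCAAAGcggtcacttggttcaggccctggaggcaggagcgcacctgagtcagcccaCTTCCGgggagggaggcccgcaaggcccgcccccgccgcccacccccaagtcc
The *Lsr* window held 2 matches to CTTTG and 1 to CGGAAG, and the windows of *Cldn5* and *Ocln* held none of the 4. Among 32851 promoter windows of this length, 48.6% held CTTTG, 27.7% held ACAAT, 13.6% held CGGAAG and 3.17% held GTAAACA. No match says only that these letters are not in this window. Promoters were found for 6 of the 9 genes, and GC content was 59.6% for *Cldn5*, 64.0% for *Ocln* and 66.8% for *Lsr*.

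**Figure D1:**
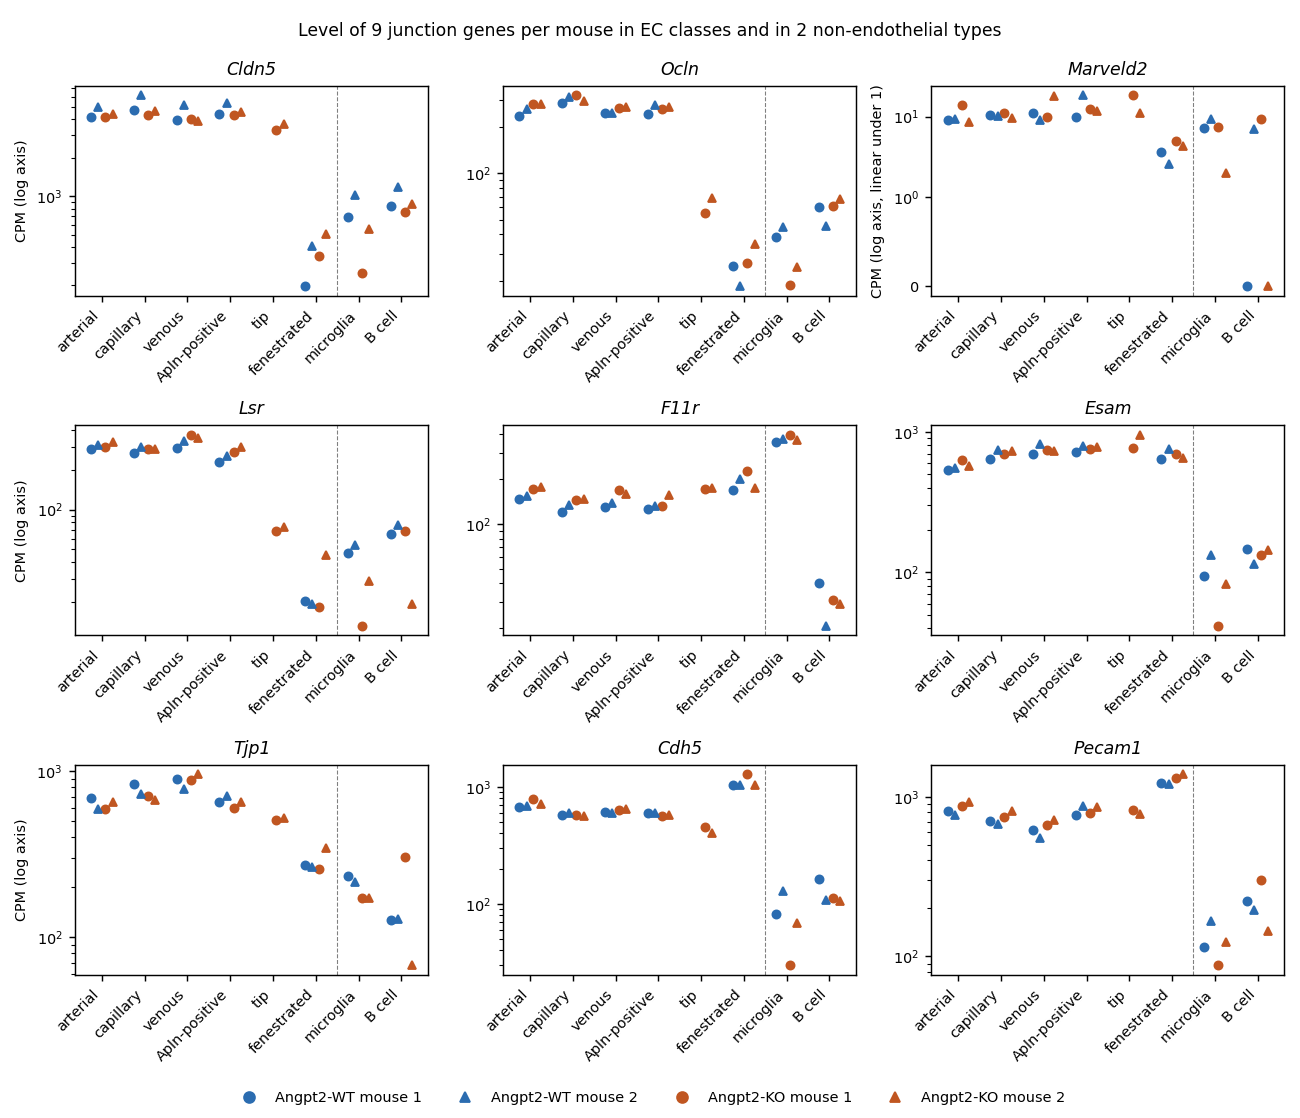
Level of each junction gene in CPM (log axis, with a linear stretch below 1 for *Marveld2*) for each mouse in 6 EC classes and, right of the dashed line, in microglia-like and B cell-like cells. Points are mice, and class sums of fewer than 10 cells are left out, which removes the WT tip cells. *Cldn5*, *Ocln* and *Lsr* drop in fenestrated-like ECs to values near those of the non-endothelial cells, while *Cdh5* and *Pecam1* are highest there.

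Compared with capillary-like ECs, fenestrated-like ECs had far less *Cldn5*, *Ocln* and *Lsr* and more *Cdh5* and *Pecam1*. Of the 9 genes, 5 were lower, 3 were higher and 1 did not pass the test (edgeR's quasi-likelihood test on sums per mouse, mouse as a term, Benjamini-Hochberg adjusted p under 0.05), where 53.2% of all 12008 genes tested passed. The median log2 fold change was -1.37 for the 9 genes and -0.01 over all genes. The level was 14.0-fold lower for *Cldn5*, 12.2-fold lower for *Ocln* and 11.7-fold lower for *Lsr*, against 2.76-fold for *Marveld2* and 2.58-fold for *Tjp1*. *Cdh5*, *Pecam1* and *F11r* were higher, and *Esam* was not called.

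*Cldn5*, the main claudin of brain vessels, had 4713, 6175, 4352 and 4642 CPM in capillary-like ECs (WT1, WT2, KO1 and KO2, the order used throughout). The same mice had 197, 405, 339 and 510.2 CPM in fenestrated-like ECs. Every mouse showed the drop and the ranges were far apart (log2 fold change -3.80, SE 0.10, adjusted p = 7.77e-24). In cells that should lack the gene the same mice had 683, 1017, 251 and 552 CPM (microglia-like) and 832, 1175, 757 and 870.1 CPM (B cell-like). The fenestrated-like value was below both in WT1, WT2 and KO2, and in KO1 it was above the microglia-like and below the B cell-like value. With each cell thinned to 2000 UMIs, a *Cldn5* UMI was found in 15.5, 16.0, 27.6 and 22.2% of fenestrated-like, 16.6, 15.8, 10.1 and 23.9% of microglia-like and 20.8, 23.4, 16.3 and 33.3% of B cell-like cells, and in 97.2 to 99.4% of capillary-like cells. The exact 95% interval of the fenestrated-like share was 20.5 to 35.6% in KO1, above the 6.57 to 14.6% of its microglia-like cells and overlapping the 9.20 to 25.8% of its B cell-like cells, whereas in the other 3 mice it overlapped both. Without thinning the fenestrated-like shares were 35.3, 36.5, 50.0 and 41.5%. Cells under 2000 UMIs were left out of the thinned shares, 711 WT and 632 KO capillary-like, 44 and 49 fenestrated-like, 81 and 85 microglia-like and 31 and 23 B cell-like cells. How much of the low *Cldn5* signal of fenestrated-like ECs came from free RNA was not tested.

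*Ocln* fell from 287, 313, 321 and 294 CPM to 24.9, 18.4, 25.9 and 34.9 CPM (log2 fold change -3.61, SE 0.09, adjusted p = 5.02e-24). The level was lower in each mouse, and microglia-like and B cell-like cells had 38.7, 45.0, 18.9 and 24.7 and 60.5, 45.1, 61.5 and 67.7 CPM. The fenestrated-like values were below both in the WT mice and between them in the KO mice. *Lsr* fell from 269, 300.2, 290.2 and 289.6 CPM to 20.5, 19.1, 18.2 and 45.5 CPM (log2 fold change -3.55, SE 0.12, adjusted p = 1.30e-21), with KO2 the highest of the fenestrated-like values and the other 3 close together. Microglia-like and B cell-like cells had 47.1, 54.2, 13.2 and 28.6 and 65.5, 76.3, 68.6 and 19.3 CPM of *Lsr*, so that the fenestrated-like value was below both in the WT mice, between them in KO1 and above both in KO2. At 2000 UMIs per cell, 2.72 to 7.59% of fenestrated-like cells had an *Ocln* UMI and 3.06 to 6.79% an *Lsr* UMI, against 2.10 to 4.46% and 1.26 to 4.51% of microglia-like and 2.08 to 6.25% and 0 to 6.25% of B cell-like cells.

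*Marveld2*, whose protein sits beside the angulins at three-cell corners, was rare everywhere. It had 10.5, 10.2, 11.2 and 9.50 CPM in capillary-like and 3.66, 2.57, 4.96 and 4.36 CPM in fenestrated-like ECs (log2 fold change -1.47, SE 0.25, adjusted p = 1.19e-05). The ranges did not meet, but microglia-like cells had 1.97 to 9.26 CPM. *Tjp1*, the plaque protein gene, was at 832, 727, 705 and 671 CPM and 273, 266, 258 and 344 CPM (log2 fold change -1.37, SE 0.07, adjusted p = 1.18e-16), a 2.58-fold lower level that was above the 172 to 233 CPM of microglia-like cells in every mouse. B cell-like cells had 126 to 128 CPM in the WT mice, and 303 and 67.7 CPM in KO1 and KO2. In KO1 the B cell-like value was above the fenestrated-like one.

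*Cdh5* rose from 580.2, 594, 571 and 568 CPM to 1043, 1033, 1287 and 1044 CPM (log2 fold change 0.92, SE 0.06, adjusted p = 8.41e-14). All fenestrated-like values were above all capillary-like ones, with KO1 highest. *Pecam1* rose from 702, 677, 746 and 813 CPM to 1217, 1207, 1311 and 1386 CPM (log2 fold change 0.80, SE 0.06, adjusted p = 1.31e-12), again without overlap. *F11r* rose less, from 121, 134, 146 and 148 CPM to 169, 201, 226 and 174 CPM (log2 fold change 0.49, SE 0.07, adjusted p = 1.55e-06), and its highest level was in microglia-like cells (356 to 398 CPM). *Esam* was at 639.5, 747, 697 and 726 CPM and 646, 758, 698 and 650.4 CPM, overlapping ranges with a difference of -0.03 (95% CI -0.17 to 0.10, adjusted p = 0.696) on the log2 scale.

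Markers of other cells differed between these classes as well. The 6 pericyte markers summed to 766 to 2342 CPM in fenestrated-like against 46.8 to 62.5 CPM in capillary-like ECs, and the 5 fibroblast markers to 20.4 to 389.7 against 1.03 to 1.95 CPM. The 5 smooth muscle markers summed to 52.9 to 338 against 8.48 to 38.6 CPM, the 5 astrocyte markers to 255 to 328 against 61.7 to 95.1 CPM and the 8 stress genes to 5717 to 6206 against 2698 to 4853 CPM. None of these ranges overlapped. The astrocyte list includes *Gja1*, a gap junction gene that capillary-like ECs held at levels given below, so its sum is not of astrocyte genes alone. The part of these markers in the result was not tested. In pericyte-like cells *Cdh5* was at 320.0 to 418 CPM and *Pecam1* at 341 to 537 CPM, both below the capillary-like level.

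**Figure D2:**
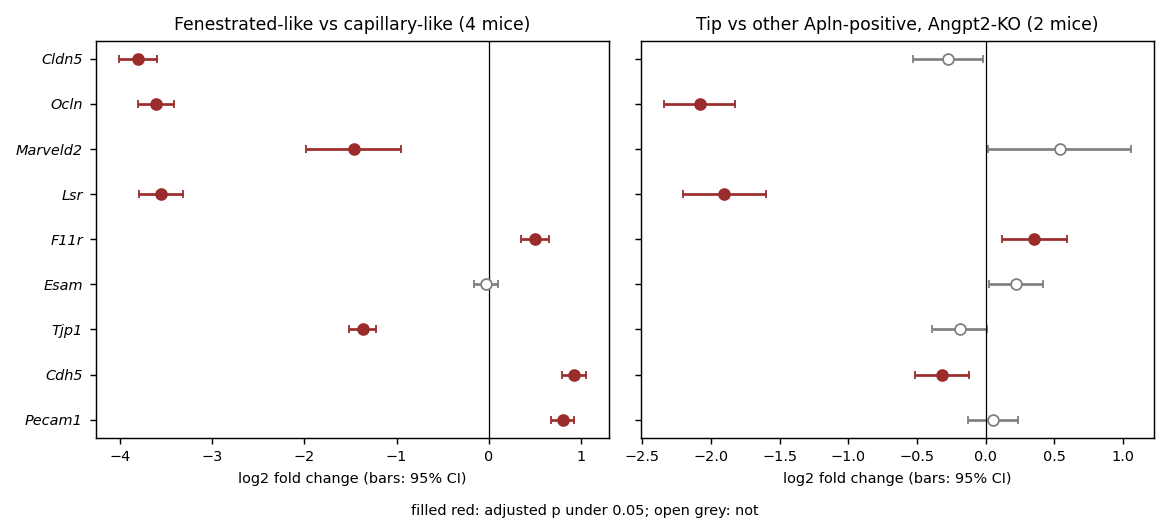
Log2 fold change (x axis) of the 9 junction genes with 95% confidence intervals, in fenestrated-like against capillary-like ECs over 4 mice (left) and in tip cells against other *Apln*-positive ECs over the 2 *Angpt2*-KO mice (right). *Ocln* and *Lsr* are far below 0 in both panels, whereas *Cldn5* is at -3.80 on the left and -0.27 on the right.

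Tip cells, the leading cells of a vascular sprout, were compared with the other *Apln*-positive ECs in KO1 and KO2, the mice with enough of them. *Ocln* was 4.24-fold and *Lsr* 3.74-fold lower in tip cells, while *Cldn5* was not called. Of the 9 genes 3 were lower, 1 was higher and 5 did not pass, where 32.5% of all genes passed. The other *Apln*-positive ECs had 260.1 and 268 CPM of *Ocln* in KO1 and KO2 and the tip cells 54.9 and 68.8 CPM (log2 fold change -2.08, SE 0.13, adjusted p = 3.18e-14). *Lsr* went from 273 and 296 CPM to 68.6 and 74.4 CPM (log2 fold change -1.90, SE 0.15, adjusted p = 8.95e-12). Both genes were lower in both mice. B cell-like cells of the same mice had 61.5 and 67.7 CPM of *Ocln*, close to the tip cells, and 68.6 and 19.3 CPM of *Lsr*. At 2000 UMIs per cell, which left out 11 KO tip cells, 8.54 and 5.71% of tip cells had an *Ocln* UMI (exact 95% intervals 3.50 to 16.8% and 0.700 to 19.2%), and 38.0 and 41.7% of the other *Apln*-positive cells, 2.33 and 4.76% of B cell-like cells and 2.10 and 2.35% of microglia-like cells did. A *Cldn5* UMI was found in 97.6 and 97.1% of the same tip cells. Without thinning 40 and 37.2% of tip cells and 86.9 and 78.9% of the others had an *Ocln* UMI, at medians of 19550 and 9435 UMIs against 10160 and 6194.5.

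*Cdh5* was modestly lower in tip cells, at 456 and 403 against 565 and 579 CPM (log2 fold change -0.32, SE 0.10, adjusted p = 0.00962), and *F11r* modestly higher, at 173 and 175 against 132 and 157 CPM (log2 fold change 0.36, SE 0.12, adjusted p = 0.0178). The *Cdh5* call was lost without KO2 and the *F11r* call without KO1, at log2 fold changes of -0.24 and 0.19. With cells thinned to 2000 UMIs neither was called, and the difference was -0.01 for *Cdh5* (adjusted p = 0.989) and 0.29 for *F11r* (adjusted p = 0.559). *F11r* was also lost without the filter on low counts (0.28), with library sizes only (0.27) and without mouse terms (0.35). Over the alternatives the adjusted p ran from 7.26e-04 to 0.989 for *Cdh5* and from 0.0100 to 0.581 for *F11r*. *Cldn5* had 3315 and 3663 CPM in tip cells and 4349 and 4582 CPM in the others, a difference of -0.27 (95% CI -0.53 to -0.02) that did not pass (adjusted p = 0.0952) but was called without WT2, whose cells enter only through the shared fit (-0.29). The differences of *Tjp1* (-0.19), *Esam* (0.22), *Marveld2* (0.54) and *Pecam1* (0.06) did not pass either. The pericyte markers summed to 467.6 CPM in the tip cells of KO1 and 14.9 CPM in those of KO2, and the fall of *Ocln* and *Lsr* was present in both. The 5 smooth muscle markers summed to 53.1 to 65.1 CPM in tip cells against 7.11 to 18.4 CPM in the other *Apln*-positive ECs of the KO mice, and their part in the tip cell differences was not tested.

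Outside the tip cells, *Apln*-positive ECs of the KO mice were compared with capillary-like ECs taken as a whole. Of the 9 junction genes 1 was called, where 13.1% of all genes passed, so the count says nothing particular about these genes. The called gene was *Ocln*, at 260.1 and 268 CPM against 321 and 294 CPM (log2 fold change -0.28, SE 0.08, adjusted p = 0.0275). Both *Apln*-positive values were below both capillary-like ones, but the call was lost without either KO mouse. For *Lsr* the values were 273 and 296 and 290.2 and 289.6 CPM and for *Cldn5* 4349 and 4582 and 4352 and 4642 CPM, with intervals of the log2 difference of -0.30 to 0.13 and -0.32 to 0.18.

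Along the arteriovenous axis the called differences of the junction genes ran from -0.33 to 0.27 on the log2 scale. Against capillary-like ECs, 3 were higher, 3 were lower and 3 did not pass in arterial-like ECs, where 26.9% of all genes passed. Arterial-like ECs had more *Cdh5*, with 670.1, 686, 791 and 712 CPM against 580.2, 594, 571 and 568 CPM (log2 fold change 0.27, SE 0.06, adjusted p = 0.00108), and less *Esam*, with 532, 557, 626 and 572 CPM against 639.5, 747, 697 and 726 CPM (log2 fold change -0.33, SE 0.06, adjusted p = 1.62e-04). In both genes the 4 arterial-like values stood apart from the 4 capillary-like ones. *F11r* (0.22) and *Pecam1* (0.17) were also higher, and *Ocln* (-0.23) and *Tjp1* (-0.26) lower. Some of these calls depended on single mice or on the processing. *Pecam1* was no longer called without KO1 (0.16), WT1 (0.17) or WT2 (0.17), *F11r* without KO2 (0.22), WT1 (0.20) or WT2 (0.22), and *Ocln* without KO1 (-0.20). Without mouse terms these calls and that of *Tjp1* were lost. *Pecam1* and *Ocln* were also lost after thinning, and *Pecam1* and *F11r* with immediate early and heat shock genes out of the clustering. *Pecam1* was further lost without the filter on low counts and with a stricter cell filter.

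In venous-like ECs 1 gene was higher, 3 were lower and 5 did not pass, where 34.3% of all genes passed. *Tjp1* had its highest mean of the EC classes there, at 896, 780.4, 882 and 959.6 CPM (log2 fold change 0.21, SE 0.07, adjusted p = 0.0125). *Pecam1* had its lowest mean, at 615, 553, 668 and 713 CPM (log2 fold change -0.26, SE 0.06, adjusted p = 0.00126), and *Ocln* was at 245, 244, 266 and 269 CPM (log2 fold change -0.30, SE 0.06, adjusted p = 5.40e-04). *Cldn5* was at 3937, 5173, 4033 and 3903 CPM (log2 fold change -0.27, SE 0.09, adjusted p = 0.0167), with WT2 highest in both classes. Without KO2 the venous *Cldn5* call was lost, at a log2 fold change of -0.22, and 2 of the 9 genes were called. The *Tjp1* call was lost without KO2 (0.18) or WT2 (0.19).

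Ordered by mean over mice, *Cldn5* was highest in capillary-like ECs with 4971 ± 818 CPM (SD, n = 4), followed by the *Apln*-positive ECs outside the tip with 4668 ± 480.1, arterial-like ECs with 4434 ± 419 and venous-like ECs with 4261 ± 610.1. These 4 neighbours overlapped in their ranges. Tip cells had 3489 ± 246 (SD, n = 2) and fenestrated-like ECs 363 ± 131 CPM (SD, n = 4). *Cdh5* ran in another order, from 1102 ± 124 CPM in fenestrated-like and 715 ± 53.6 in arterial-like ECs through 623 ± 26.5 in venous-like, 587 ± 17.9 in *Apln*-positive and 578 ± 11.8 in capillary-like ECs (SD, n = 4 each) to 429.5 ± 36.9 in tip cells (SD, n = 2). The *Cdh5* ranges of *Apln*-positive and capillary-like ECs overlapped, as did those of *Apln*-positive and venous-like ECs.

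Capillary-like ECs were themselves uneven in *Cldn5*. They joined 3 clusters, and in cluster 0 *Cldn5* was at 2523, 3199, 2539.5 and 2818 CPM in WT1, WT2, KO1 and KO2, against 5149, 6292, 5354 and 5664 CPM in cluster 1 and 5351, 6855, 5747 and 5933 CPM in cluster 2. All 4 mice had about the same split, and no cluster 0 value reached a value of the others. *Ocln* did not follow, at 316, 365, 354 and 342 CPM in cluster 0 and 221, 303, 273 and 248 CPM in cluster 1, and *Pecam1* was highest in cluster 0 at 809, 919.7, 817 and 933 CPM. Cluster 0 was led by *Gm26917*, *Lars2* and *Gm42418* and had the fewest UMIs, with a median of 2970 per cell against 3552.5 and 8810. It made up 36.7% and 32.0% of the capillary-like cells in WT1 and WT2 and 54.3% and 47.0% in KO1 and KO2. These clusters are described without a test. Set against cluster 0 alone, the log2 difference of *Cldn5* was 0.62 in arterial-like, 0.54 in venous-like and 0.66 in *Apln*-positive ECs, so that its order among the brain EC classes depends on which capillary cells are taken. Against cluster 1 alone the arterial calls of *Ocln* (-0.07), *Tjp1* (-0.04) and *F11r* (0.17), the venous call of *Ocln* (-0.15) and the *Apln*-positive call of *Ocln* (-0.07) were lost, and against cluster 0 alone the arterial call of *Cdh5* was (0.14). Against cluster 2 alone the venous call of *Tjp1* (0.05) and the *Apln*-positive call of *Ocln* (-0.19) were lost.

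**Figure D3:**
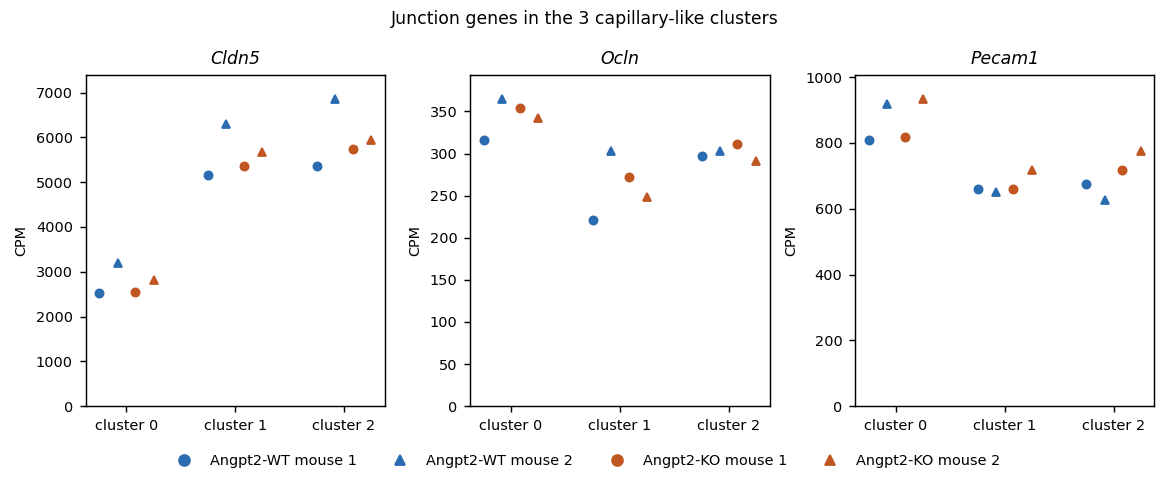
*Cldn5*, *Ocln* and *Pecam1* in CPM (y axis from 0) in the 3 clusters that form the capillary-like class, with 1 point per mouse. *Cldn5* is at 2523 to 3199 CPM in cluster 0 and 5149 to 6855 CPM in clusters 1 and 2 in all 4 mice.

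The genotypes were then compared, to ask whether loss of *Angpt2* moved the junction genes within a class of ECs. None of the 9 genes was called between *Angpt2*-KO and *Angpt2*-WT in any of 7 comparisons with edgeR. Over all genes, 6.07% were called in brain ECs together, 1.68% in brain ECs outside the *Apln*-positive class, 0.967% in arterial-like, 2.53% in capillary-like, 0.0579% in venous-like, 0.199% in *Apln*-positive (tip cells included) and 0 in fenestrated-like ECs. No junction gene had an unadjusted p under 0.05 in any of the 7 either, and DESeq2 called 0 of them as well. In fenestrated-like ECs 391 of 9826 genes had an unadjusted p under 0.05, and DESeq2 called 1 gene. *Marveld2* was too low to be tested in fenestrated-like ECs. The median log2 fold change of the 9 genes in brain ECs was -0.07, against -0.02 over all genes.

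Brain ECs as a whole had 4474, 5742, 4211 and 4508 CPM of *Cldn5*, with WT2 above the other 3 and WT1 between the KO mice (log2 fold change -0.24, SE 0.19, adjusted p = 0.561). The interval of the difference was -0.68 to 0.20. Leaving out WT1 leaves 1 WT mouse, which is then assumed to vary as the KO mice do. Without WT1 the genotype difference of *Cldn5* was -0.44 in capillary-like ECs and -0.49 in venous-like ECs and was called in both (adjusted p = 0.0264 and 0.00772), while without WT2 the capillary-like value was -0.11 and was not. The same held outside the *Apln*-positive class, with -0.40 without WT1 (adjusted p = 0.00739). Over all alternatives the adjusted p of *Cldn5* ran from 0.0264 to 0.999 in capillary-like, from 0.00772 to 0.996 in venous-like and from 0.00739 to 0.982 in brain ECs outside the *Apln*-positive class. In capillary-like ECs the difference was -0.28 (95% CI -0.64 to 0.09), and inside clusters 0, 1 and 2 it was -0.07, -0.06 and -0.08.

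*Ocln* was at 268, 288, 254 and 275 CPM in brain ECs, with KO2 between the WT mice and KO1 lowest (log2 fold change -0.09, SE 0.12, adjusted p = 0.762). *Tjp1* was at 801, 716, 625 and 679 CPM, with both KO mice below both WT mice (log2 fold change -0.24, SE 0.15, adjusted p = 0.457). *Pecam1* was at 720.3, 669, 786 and 841 CPM, with both KO mice above both WT mice (log2 fold change 0.21, SE 0.15, adjusted p = 0.507). Neither difference passed the test.

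*F11r* was at 129, 139, 144 and 157 CPM, both KO mice above both WT mice. Its log2 difference was positive in all 7 comparisons, from 0.05 to 0.20, without passing in any. The 7 share mice and partly cells, so their signs are not independent. Over the alternatives the lowest *F11r* difference was -0.10 in *Apln*-positive and -0.16 in fenestrated-like ECs. *Cdh5*, at 606, 610.5, 579 and 594 CPM, had intervals of -0.38 to 0.24 in all brain ECs and -0.33 to 0.23 in capillary-like ECs. *Esam* (-0.24 to 0.43), *Lsr* (-0.38 to 0.22) and *Marveld2* (-0.11 to 0.55) had similarly wide intervals in brain ECs. With 2 mice per genotype, changes within these bounds could not be told from none.

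**Figure D4:**
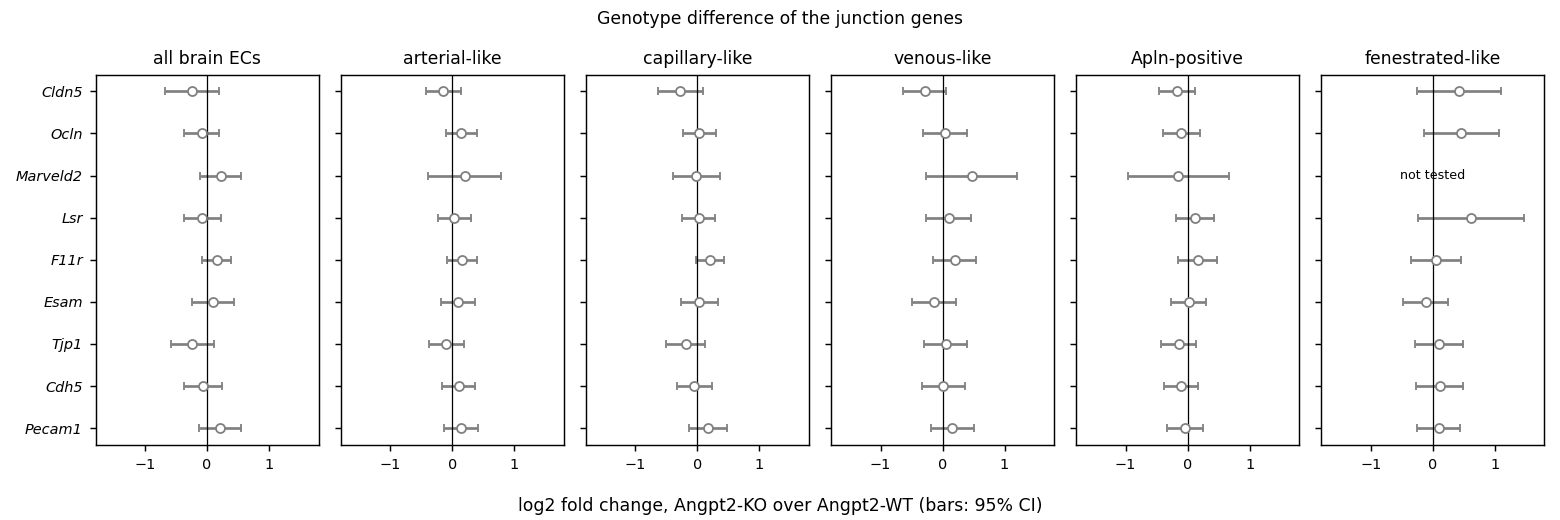
Log2 fold change of *Angpt2*-KO over *Angpt2*-WT (x axis) with 95% confidence intervals for the 9 junction genes in all brain ECs and in 5 classes, from 2 mice per genotype. Every interval contains 0, and the widest is that of *Lsr* in fenestrated-like ECs (-0.24 to 1.47).

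In *Apln*-positive ECs the WT values rest on 44 and 49 cells. *Cldn5* was at 4454, 5258, 4186 and 4528 CPM and *Lsr* at 224, 252, 241 and 283 CPM, with KO2 highest for *Lsr* and WT2 highest for *Cldn5*, and differences of -0.17 (95% CI -0.46 to 0.11) and 0.12 (95% CI -0.19 to 0.43). Selecting ECs by at least 2 *Apln* UMIs in place of the clusters turned the *Lsr* difference to -0.66. That selection held 9 and 15 cells of WT1 and WT2 and 234 and 126 of KO1 and KO2. WT1 fell short of the 10 cells needed for a sum, so this fit set 1 WT mouse against the 2 KO mice. That WT mouse is then assumed to vary as the KO mice do.

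Whether the class differences depended on genotype was tested as an interaction. None of the 9 genes was called for arterial-like, venous-like or fenestrated-like against capillary-like ECs, where 0.25%, 0.25% and 0.791% of all genes were. At an unadjusted p under 0.05 there were 0, 0 and 3 junction genes, and DESeq2 called 0 in each. The 3 were *Cldn5*, *Ocln* and *Lsr*, chosen here after their values were seen, with fenestrated-like drops that were smaller in KO by 0.72, 0.48 and 0.61 on the log2 scale (adjusted p = 0.0656, 0.528 and 0.495). As given above, their fenestrated-like levels were below both the microglia-like and B cell-like levels in the WT mice, but above the microglia-like level in KO1 and, for *Ocln* and *Lsr*, in KO2. Without KO1 the *Cldn5* and *Lsr* interactions were called, at 0.92 and 1.12, and without WT2 that of *Cldn5* was, at 1.14. In each of these fits 1 genotype has a single mouse, assumed to vary like the others. The adjusted p of the *Cldn5* interaction ran from 2.26e-07 to 0.703 over the alternatives.

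The other 38 junction genes listed, of 7 groups, were tested in the same fits. In fenestrated-like ECs 12 of the 29 tested were higher and 13 lower than in capillary-like ECs, where 53.2% of all genes were called, 3328 higher and 3065 lower of 12008. Of 7 tight junction plaque genes tested, 6 were lower and none higher, among them *Cgnl1* (paracingulin, log2 fold change -1.74) and *Pard3* (a polarity protein, -1.72), both picked as examples after their values were seen. Of 10 adherens junction genes 6 were higher, among them *Jup* (plakoglobin, 2.00, picked likewise), and 3 were lower, where the same share of all genes applies. The 4 largest differences were those of *Mcam*, *Jam3*, *Gja4* and *Ildr2*. *Ildr2*, an angulin like *Lsr*, fell from 91.0, 74.1, 68.3 and 46.7 CPM to 13.2, 10.7, 2.20 and 3.11 CPM (log2 fold change -3.61, SE 0.18, adjusted p = 5.29e-17). *Jam3* (JAM-C) rose from 5.01, 4.95, 6.62 and 5.48 CPM to 227, 243, 227 and 177 CPM (log2 fold change 5.30, SE 0.10, adjusted p = 1.15e-27), above the 28.6 to 60.5 CPM of pericyte-like and 59.2 to 82.5 CPM of smooth muscle-like cells. *Mcam*, an adhesion protein also of mural cells, rose from 3.90, 3.75, 3.31 and 6.21 CPM to 253, 214, 257 and 207 CPM (log2 fold change 5.71, SE 0.13, adjusted p = 4.44e-25), with 111 to 194 CPM in pericyte-like and 405 to 521 CPM in smooth muscle-like cells. *Gja4* (connexin 37) was 4.94 higher on the log2 scale and was also present in pericyte-like cells at 83.3 to 101 CPM.

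In tip cells 10 of the 29 were higher and 9 lower than in the other *Apln*-positive ECs, where 32.5% of all genes were called. *Mcam* went from 11.1 and 9.65 CPM to 335 and 409 CPM in KO1 and KO2 (log2 fold change 5.19, SE 0.17, adjusted p = 2.44e-20). The study lists *Mcam* in the profile of its tip cell cluster. Smooth muscle-like cells held *Mcam* as well, and their part in its rise was not tested. *Nectin2* went from 14.3 and 13.5 to 49.3 and 59.5 CPM (1.99) and *Jam3* from 9.19 and 6.62 to 24.0 and 18.6 CPM (1.52), the values in parentheses being log2 fold changes. *Jam2* (JAM-B) moved the other way, from 261 and 256 CPM to 66.0 and 79.9 CPM (log2 fold change -1.82, SE 0.12, adjusted p = 2.79e-13). *Ildr2*, unlike *Lsr*, was higher in tip cells, just inside the threshold (log2 fold change 0.47, SE 0.18, adjusted p = 0.04997), with 36.0 and 23.0 CPM in the others and 46.7 and 22.3 CPM in tip cells. Only KO1 showed the rise in CPM.

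**Figure D5:**
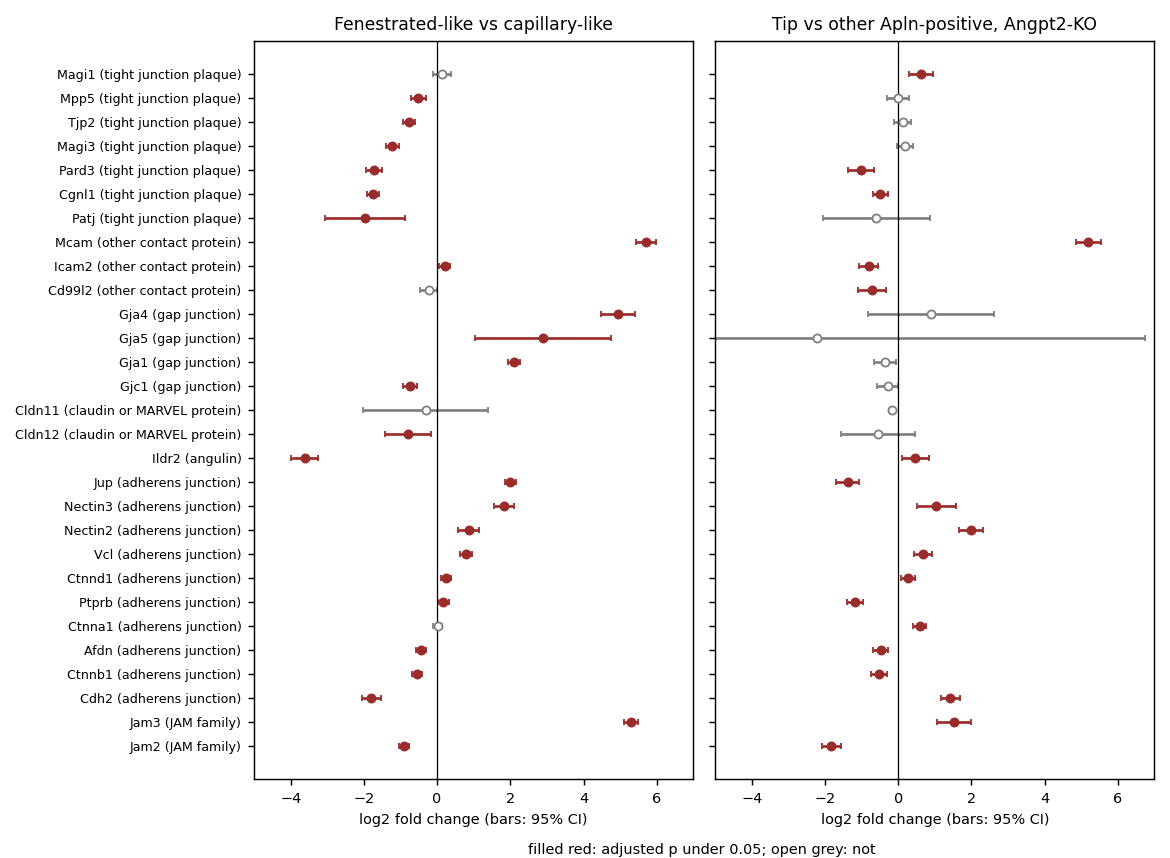
Log2 fold change (x axis) with 95% confidence intervals of the other junction genes that were tested, by group, in fenestrated-like against capillary-like ECs (left) and tip cells against other *Apln*-positive ECs in KO mice (right). *Mcam* is above 5 in both panels and *Ildr2* is at -3.61 on the left and 0.47 on the right. The interval of *Gja5* on the right runs past the axis.

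In the other class comparisons 7 of 29 were higher and 8 lower in arterial-like ECs (26.9% of all genes called), 10 and 8 in venous-like ECs (34.3%), and 4 and 2 in the *Apln*-positive ECs outside the tip in KO mice (13.1%). The arterial connexins *Gja5* (5.84) and *Gja4* (4.53), *Mcam* (2.29) and N-cadherin *Cdh2* (-1.56) differed most in arterial-like ECs. In venous-like ECs these were *Cldn11* (4.38), *Gja1* (-2.22), *Gja4* (1.91) and *Nectin2* (1.70), and in *Apln*-positive ECs *Ildr2* (-1.004), *Mcam* (0.98), *Nectin2* (0.52) and *Vcl* (0.33).

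By genotype, 2 of 30 of these genes were higher and 3 lower in *Angpt2*-KO brain ECs as a whole, where 6.07% of all genes were called. On the log2 scale *Mcam* (1.83) and *Gja1* (0.79) were higher, and the claudin gene *Cldn11* (-1.96), *Ildr2* (-0.96) and the polarity protein gene *Patj* (-0.89) lower. *Mcam* had its highest brain EC level in tip cells, and *Cldn11* had 3.07 to 6.80 CPM in venous-like and at most 0.31 CPM in the other brain EC classes. The part of the unequal class shares, with 128 KO and 3 WT tip cells and 194 KO and 495 WT venous-like cells, in these 2 differences was not tested. Outside the *Apln*-positive class, where 1.68% of all genes were called, 1 of 30 was called, *Gja1* (connexin 43, log2 fold change 0.89, SE 0.14, adjusted p = 0.0123). It was at 83.0, 71.5, 189 and 157 CPM in the arterial-like ECs of WT1, WT2, KO1 and KO2 (log2 fold change 1.11, SE 0.13, adjusted p = 1.88e-04) and at 58.3, 47.7, 77.6 and 82.6 CPM in capillary-like ECs (log2 fold change 0.59, SE 0.13, adjusted p = 0.0307), with both KO mice above both WT mice in each class. *Gja1* is also 1 of the 5 astrocyte markers listed, which summed to 99.4, 82.0, 207 and 166 CPM in arterial-like ECs with *Gja1* included. No listed gene was called in venous-like, *Apln*-positive or fenestrated-like ECs, where 2, 3 and 3 had an unadjusted p under 0.05.

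The genes most like *Cldn5* in pattern over the 22 sums of mouse and EC class were *Ctsh* (cathepsin H), *Foxq1* and *Lef1* (transcription factors), with Pearson correlations of log2(CPM + 1) of 0.983, 0.980 and 0.968 among 6645 genes of at least 20 CPM on average. For *Ocln* they were *Abcb1a* (the efflux pump P-glycoprotein, 0.990), *Lsr* (0.987) and *Maoa* (monoamine oxidase A, 0.986), and for *Cdh5* they were *Plscr2* (0.968), *Rbms1* (0.962) and *Smco4* (0.951). *Cldn5* and *Cdh5* ran in opposite directions over these sums (-0.824). The fenestrated-like sums were the lowest in *Cldn5* and the highest in *Cdh5*, and no correlation was computed without these sums. Among the brain EC classes, tip cells had the lowest mean of both genes. The sums share mice, libraries and depth, and the correlations only describe the pattern.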

How the data were processed

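Single cells of cerebral vascular fragments from 2 *Angpt2*-WT and 2 *Angpt2*-KO mice were sequenced with 10x 3′ chemistry. The authors made the deposited UMI counts per gene and barcode with Cell Ranger (6.1.2 in the submitters' processing notes, 6.1.1 in the matrix header) on mm10, and no normalization was applied. Cells were kept if they had over 500 genes and less than 10% mitochondrial UMIs. No doublets were removed.

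Cells were clustered with Seurat 5.3.0 in R 4.3.3 (2000 variable genes, 50 components, resolution 0.2, then 0.4 for ECs). The junction genes were left out of both clusterings. All markers, *Apln* and *Esm1* were left out of the EC clustering only. The clustering of all cells, which formed the fenestrated-like class, could use *Plvap* and the other markers. Classes were rebuilt and named from listed markers. *Apln*-positive clusters had at least 5 times the median cluster's *Apln* CPM. A further criterion, a UMI in 25% of cells, was dropped since of the *Apln*-positive clusters only the tip cluster met it (21.8% in the other), and markers among the 10 leading genes were given priority in naming, after the clusters had been seen. UMIs were summed per mouse and class (at least 10 cells) and compared with edgeR 4.0.16 (quasi-likelihood test, filterByExpr, TMM), over all genes, at a Benjamini-Hochberg adjusted p of 0.05. Class comparisons used mouse terms. Alternatives included DESeq2 1.42.0, and scripts were tested on simulated data. The named genes were the 9 genes, the 4 listed genes of largest change per comparison, and the 3 genes most like *Cldn5*, *Ocln* and *Cdh5*. Named beyond this rule, with values known, were *Cgnl1*, *Pard3* and *Jup* in fenestrated-like ECs and *Ildr2* in tip cells. By genotype in brain ECs as a whole, every listed gene called was named. Genes and lists were chosen with earlier results of these data known. Exact (Clopper-Pearson) intervals of shares cover counting error only. Each mouse is 1 sample, so p-values of the genotype comparisons measure the spread between 2 mice per genotype. Those of the class comparisons and interactions come from fits with mouse terms. They measure the scatter of class sums that is left within mice, shared over all EC classes.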

Additional observations from a re-analysis of the deposited data

How the results depend on the processing

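The fenestrated-like calls of *Cldn5*, *Ocln*, *Lsr*, *Marveld2*, *Tjp1*, *Cdh5*, *Pecam1* and *F11r* against capillary-like ECs kept their direction and their side of the threshold in every alternative that tested them, as did *Ocln* and *Lsr* in tip cells. *Marveld2* was not tested after thinning to 2000 UMIs, where 7 genes were called. Replicate block: the same numbers go with sex in the labels. The study speaks of separate experiments, which may be the replicate numbers, but the labels do not say so. The differences between mouse 1 and mouse 2 correlated between genotypes with a Pearson r of 0.0993 and a Spearman rho of -0.132 over 13530 genes. With the block 0 of the 9 genes were called by genotype in each of the 7 comparisons, as without it. Among all genes the block called 1211 in brain ECs (821 without it), 287 outside the *Apln*-positive class (220), 248 in arterial-like (107), 727 in capillary-like (310), 86 in venous-like (6), 180 in *Apln*-positive (22) and 6 in fenestrated-like ECs (0).

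Leaving out 1 mouse at a time gave 0 to 1 called junction genes by genotype outside the *Apln*-positive class, in capillary-like and in venous-like ECs (1 without WT1, *Cldn5*), 2 to 4 in venous-like and 0 to 1 in *Apln*-positive against capillary-like ECs, and 0 to 2 for the fenestrated-like interaction. Without mouse terms (no replicate block) 2 genes were called in arterial-like and 2 in venous-like against capillary-like ECs, where the terms gave 6 and 4, and 0 in *Apln*-positive ECs. Thinned to 2000 UMIs, 2 were called in venous-like ECs, 0 in *Apln*-positive ECs, 2 in tip cells and 1 in the fenestrated-like interaction. Without the filter on low counts, and with library sizes only, *Apln*-positive ECs gave 0 and the fenestrated-like interaction 1. At clustering resolution 0.3, without stress genes, or against capillary cluster 0 or 2 alone, *Apln*-positive ECs gave 2. Selecting ECs by 2 *Apln* UMIs, which left 1 WT mouse with enough cells, reversed the genotype difference of *Lsr* (-0.66). Against capillary cluster 0 alone, an alternative chosen after seeing the data, *Pecam1* (-0.10) and *Cldn5* (0.62) reversed in arterial-like, and *Cldn5* in venous-like (0.54) and *Apln*-positive ECs (0.66). The cause of these changes was not tested. Over the alternatives the genes called by genotype ranged from 251 to 1764 in brain ECs, 115 to 1656 outside the *Apln*-positive class, 38 to 318 in arterial-like, 11 to 889 in capillary-like, 6 to 511 in venous-like, 0 to 979 in *Apln*-positive and 0 to 52 in fenestrated-like ECs. By class they ranged from 1736 to 6500 (arterial-like), 1502 to 6654 (venous-like), 3270 to 7763 (fenestrated-like), 504 to 4515 (*Apln*-positive) and 1103 to 3992 (tip), and for the interactions from 0 to 99, 1 to 92 and 10 to 209. Depth limits *Marveld2*, and the 2 mice per genotype and few WT *Apln*-positive cells limit the genotype comparisons.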
